A study of Mus musculus with 12 samples.

Results

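The genes described here are 44 interferon-induced genes of mouse liver, taken by name from a list of interferon response genes out of the 23909 genes of the deposited expression table. All 44 were in the table, and all 44 reached 1 RPKM (read count relative to gene length and to the mapped total) in 3 or more of the 12 libraries. In 40 of them every library was at 1 RPKM or above. The exceptions were Oas2, at 1 RPKM in 6 libraries, Ifit2 in 9, Ifi44 in 10 and Gbp2 in 11. Liver was sampled from mice under 1 strain name, C57BL/6, bought from Jackson (JAX) or Taconic (TAC) and then cohoused for 4 weeks. Mice kept with mice of their own vendor made up the JAX and TAC groups, Jackson mice kept with Taconic mice made up CoJAX, and Taconic mice kept with Jackson mice made up CoTAC, each with 3 libraries. The study asks how differing gut microbes act on gene expression in the liver. Mice of the 2 vendors may also differ genetically, and in comparisons between vendors genetic and microbial differences cannot be told apart. The labels name no age, sex or cage, nor a separate animal for each library, so the p-values below reflect library-to-library spread, which may be technical.

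Interferons are secreted when a cell senses nucleic acid or microbial products. Type I interferons signal through Ifnar1 and Ifnar2 and the kinases Jak1 and Tyk2 to a complex that holds Stat2 and Irf9 and binds the interferon-stimulated response element (ISRE). Type II interferon signals through Ifngr1 and Ifngr2 and acts at the gamma-activated site (GAS). The induced genes encode sensors, antiviral effectors, GTPases that act on pathogen vacuoles, antigen presentation and chemokines. Many of them keep a low level without infection, and products of gut microbes that reach the liver through the portal vein are among the known inputs to that level.

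The start regions of 6 members are shown, picked from those lower in CoJAX than in JAX because they differ in these elements. They do not stand for all members that differed. Each runs 5′ to 3′ on the strand of the gene from 250 bases before to 50 bases after its RefSeq start on GRCm38.p6, which is not the build named for the deposited values. Capitals mark the ISRE core, spelled GAAA, any 2 bases and GAAA, or on the other strand TTTC, any 2 bases and TTTC. The windows are chr4:156200769-156201068 on the minus strand for Isg15, chr8:71537423-71537722 on the minus strand for Bst2, chr2:122147437-122147736 on the plus strand for B2m, chr3:142530086-142530385 on the plus strand for Gbp7, chr17:78882523-78882822 on the minus strand for Eif2ak2 and chr7:141266375-141266674 on the minus strand for Irf7.
Isg15: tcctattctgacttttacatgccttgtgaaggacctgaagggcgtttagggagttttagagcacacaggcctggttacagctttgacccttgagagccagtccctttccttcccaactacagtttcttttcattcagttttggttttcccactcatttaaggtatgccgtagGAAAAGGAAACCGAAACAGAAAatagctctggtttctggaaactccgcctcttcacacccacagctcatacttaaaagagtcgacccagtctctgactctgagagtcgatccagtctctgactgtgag
Bst2: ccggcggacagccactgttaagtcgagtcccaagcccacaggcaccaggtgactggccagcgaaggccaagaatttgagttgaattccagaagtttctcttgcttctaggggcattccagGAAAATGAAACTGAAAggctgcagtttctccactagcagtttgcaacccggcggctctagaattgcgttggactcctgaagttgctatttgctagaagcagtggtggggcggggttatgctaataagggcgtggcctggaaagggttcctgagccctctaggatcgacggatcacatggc
B2m: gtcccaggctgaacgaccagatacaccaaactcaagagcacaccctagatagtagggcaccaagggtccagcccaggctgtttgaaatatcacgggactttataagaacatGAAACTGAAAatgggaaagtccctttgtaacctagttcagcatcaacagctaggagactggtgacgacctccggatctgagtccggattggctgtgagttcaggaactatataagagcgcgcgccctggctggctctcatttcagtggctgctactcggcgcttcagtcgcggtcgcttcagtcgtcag
Gbp7: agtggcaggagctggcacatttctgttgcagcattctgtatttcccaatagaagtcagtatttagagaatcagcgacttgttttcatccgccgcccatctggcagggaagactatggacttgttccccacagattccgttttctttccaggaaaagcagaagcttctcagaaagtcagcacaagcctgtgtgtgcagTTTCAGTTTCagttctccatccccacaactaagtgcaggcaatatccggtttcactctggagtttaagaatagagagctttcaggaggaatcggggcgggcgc
Eif2ak2: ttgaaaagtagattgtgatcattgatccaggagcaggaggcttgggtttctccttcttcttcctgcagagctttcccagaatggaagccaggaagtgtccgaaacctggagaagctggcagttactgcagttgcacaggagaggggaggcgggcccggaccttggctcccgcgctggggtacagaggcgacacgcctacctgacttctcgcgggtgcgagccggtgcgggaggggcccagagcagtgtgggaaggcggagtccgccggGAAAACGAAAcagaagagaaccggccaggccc
Irf7: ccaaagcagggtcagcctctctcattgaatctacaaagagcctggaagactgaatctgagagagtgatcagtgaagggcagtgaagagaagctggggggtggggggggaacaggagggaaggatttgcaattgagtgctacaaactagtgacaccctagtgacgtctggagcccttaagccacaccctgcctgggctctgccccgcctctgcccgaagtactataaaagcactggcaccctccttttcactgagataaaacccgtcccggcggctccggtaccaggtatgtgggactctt
In Isg15 3 overlapping cores began 78, 72 and 66 bases before the start, and in Bst2 2 overlapping cores began 130 and 124 bases before it. In B2m 1 core began 139 bases before the start and in Gbp7 1 core began 53 bases before it. In Eif2ak2 the core lay 18 bases after the start, and the Irf7 window held none of these letters. The windows of Xaf1, also lower in CoJAX, and Lgals3bp, higher there, are not shown and held no core either. Of the 44 members 33 had a RefSeq window, and the ISRE core was in 18 of them (54.5%), against 1079 of 27025 genes (3.99%). The GAS letters, TTCNNNGAA, which read the same on both strands, were in 9 of the 33 (27.3%) and in 2582 of the 27025 (9.55%). These are matches of letters, not sites shown to be bound.

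Libraries differed in depth in a way that touches the groups. The steps between low RPKM values put the JAX libraries at relative depths of 0.7581 to 1, the TAC libraries at 0.7943 to 1.7540, CoJAX at 1.0882 to 1.8788 and CoTAC at 1.5900 to 1.8400. The corresponding estimates were 1560000 to 3860000 reads a library, so that 1 read in 2000 nucleotides was worth 0.13 to 0.321 RPKM. Values also leaned with transcript length, with slopes per doubling of length of -0.163 to -0.141 log2 for JAX, -0.097 to 0.076 for TAC, -0.082 to 0.073 for CoJAX and 0.14 to 0.171 for CoTAC. Albumin, which defines hepatocytes, lay at 511.5 to 1151.6 RPKM. In bulk tissue, fewer cells of a type and less RNA per cell cannot be told apart.

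Levels of the members (RPKM, which is per length, as the mean of 12 libraries) ran from 1.299 for Oas2 to 692.2 for B2m. The 4 above 100 RPKM were B2m, the light chain of class I molecules (692.2), Bst2, or tetherin, which holds budding virions at the membrane (420.5), Ly6e, a GPI-anchored surface protein (140.5), and Iigp1, a GTPase of the pathogen vacuole (139.1). A further 17 members lay at 10 to 100 RPKM and 23 below 10. Among the transcription factors the mean ran from 25.67 RPKM for Stat2 to 65.88 for Irf7, and among the sensors from 7.526 for Ddx58 (RIG-I) to 21.87 for Zbp1. Antiviral effectors other than Bst2 were low, from 1.299 RPKM for Oas2 to 10.17 for Oasl1. The guanylate binding proteins (Gbp2, Gbp3, Gbp6 and Gbp7) lay at 2.448 to 5.317 RPKM and the immunity-related GTPases (Irgm1, Irgm2, Igtp and Iigp1) at 18.64 to 139.1. The chemokines Cxcl9 and Cxcl10 were at 8.327 and 5.613 RPKM. Members of the Oas, Ifit, Gbp and Irgm families have near-identical copies that can share reads, so their values are uncertain.

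**Figure D1:**
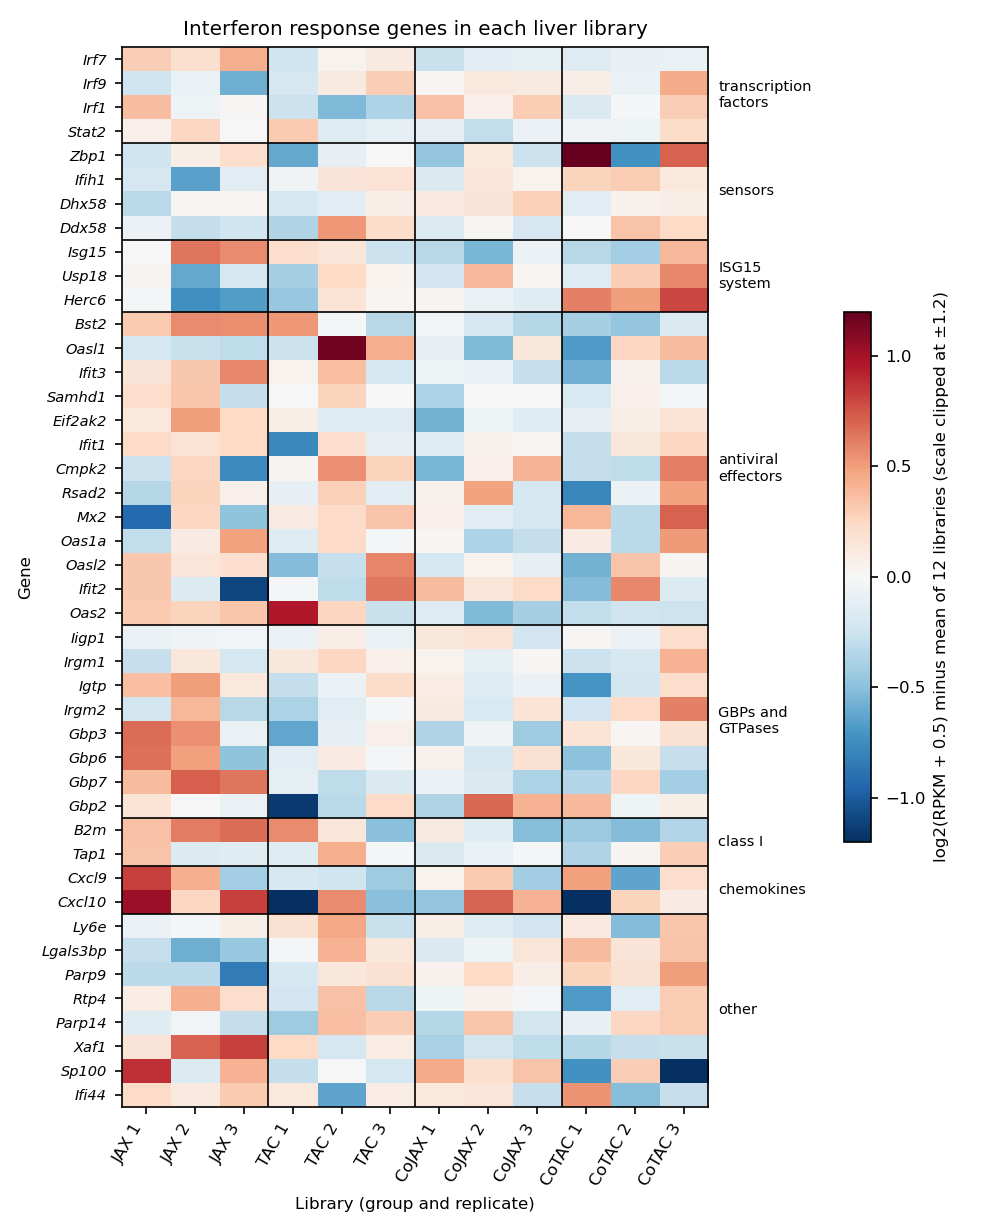
Deviation of each member from its own mean over the 12 libraries, as log2(RPKM + 0.5), with genes in rows by role and libraries in columns by group. The color scale stops at 1.2 in either direction. Most members vary from library to library within a group, while Xaf1 lies above its mean in all JAX libraries and below it in all 6 cohoused ones.

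The members varied among libraries by a median of 2.31 times between the lowest and the highest RPKM. The span was 1.36 times for Iigp1, the steadiest member, and 8.36 times for Cxcl10. It was under 2 times in 12 members and over 4 times in 6. Iigp1 measured 131, 135 and 135 RPKM in JAX, 132, 147 and 131 in TAC, 152, 156 and 118 in CoJAX, and 140.3, 132 and 160.2 in CoTAC. All 4 groups overlap, and the difference of CoJAX from JAX was 0.08 ± 0.12 log2 (SE; 95% interval -0.19 to 0.34).

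Values of 32 members came out as whole reads in every library (within 0.01 of a whole number), which shows how thin the weakest ones are. Of these, 8 had fewer than 10 reads in at least 1 library and 16 had at least 30 in all. Ifit2, which binds viral RNA, rested on 2 to 32 reads, Cxcl10 on 2 to 24 and Gbp2 on 3 to 30. B2m and Bst2 stood apart in another way. The reads of B2m numbered 1068 to 1223 a library, a span of 1.15 times, while relative depth spanned 2.48 times. Those of Bst2 numbered 509 to 727, a span of 1.43 times. Their RPKM was thus lower in deeper libraries, and no other member with whole reads spanned under 1.5 times. Albumin was alike in this: its RPKM times relative depth, which is in proportion to its reads, spanned 1.11 times. The RPKM levels of B2m and Bst2, and differences in them between groups of unequal depth, carry this pattern.

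**Figure D2:**
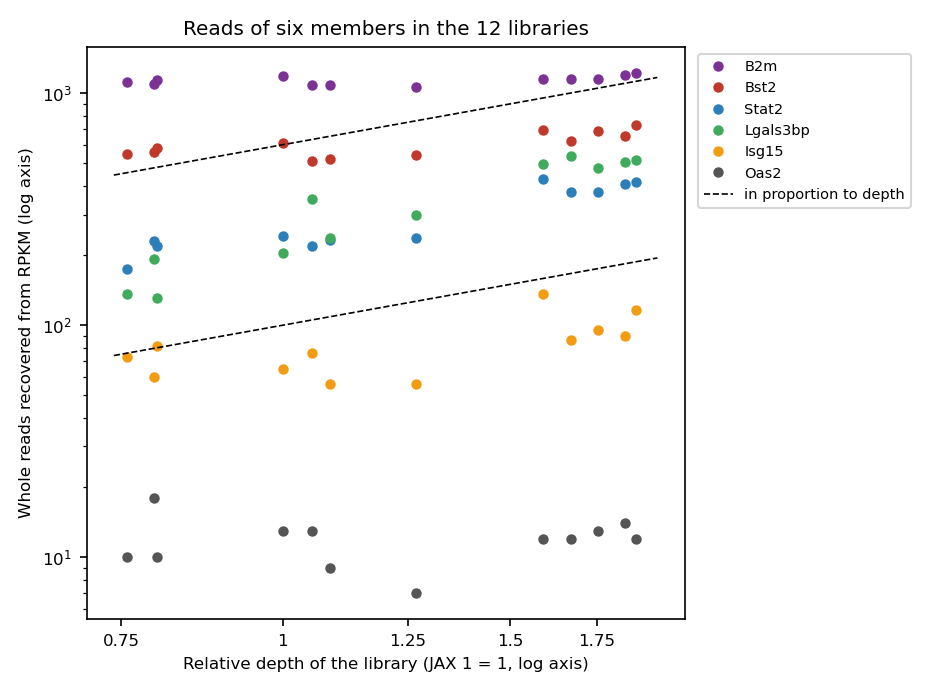
Whole reads of 6 members in each library against the relative depth of the library, both on log axes, with dashed lines for reads in proportion to depth. The reads of B2m (1068 to 1223) and Bst2 (509 to 727) stay nearly level over a range of depth of 2.48 times, while those of Stat2 run from 175 to 429 and those of Lgals3bp from 131 to 536.

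Jackson mice that had lived with Taconic mice, compared with Jackson mice that had not, had 9 of the 44 members past the threshold of 0.05. This was limma-trend on log2(RPKM + 0.5) over 12058 genes, with Benjamini-Hochberg adjustment over all of them. Higher were Parp9 and Lgals3bp, and lower were Irf7, Xaf1, Gbp7, Bst2, Eif2ak2, Isg15 and B2m. The members called make 20.5%, while 24.1% of all tested genes were called (12.7% higher and 11.5% lower), so the share of members called was near that of all genes. The groups did not overlap in 4 members that were higher and 14 that were lower, while 21.8% of all genes lay higher and 21.9% lower without overlap. The median difference was -0.155 log2 over the members and -0.01 over all genes. A depth term in the fit left 0 of the 9 members called, with Irf7 nearest at an limma adjusted p of 0.0522, and 39 of all genes, against 2911 without it. All 9 kept their direction.

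Irf7, the factor that amplifies type I interferon production, measured 80.2, 74.3 and 88.5 RPKM in JAX, 55.1, 67.0 and 70.5 in TAC, 54.1, 59.5 and 59.9 in CoJAX, and 58.6, 61.2 and 61.6 in CoTAC. Every JAX library was above every library of the other 3 groups. CoJAX was lower than JAX by a log2 difference of -0.48 ± 0.11 (SE; limma adjusted p = 0.0123). It stayed past the threshold without any 1 of the 12 libraries, and with the depth term the difference was -0.62 ± 0.12.

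Xaf1, a pro-apoptotic interferon-induced protein, measured 4.63, 7.03 and 7.65 RPKM in JAX and 3.02, 3.45 and 3.24 in CoJAX. TAC held 4.96, 3.51 and 4.40 RPKM, and CoTAC 3.14, 3.32 and 3.33. The lowest JAX library was above every cohoused library. CoJAX was lower than JAX by -0.87 ± 0.20 log2 (limma adjusted p = 0.013), and the call was lost without JAX 3. With the depth term the difference was -0.75 ± 0.25 (limma adjusted p = 0.119).

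Among the antiviral effectors 2 of 13 were lower in CoJAX and 0 higher, where 11.5% of all genes were lower and 12.7% higher. Bst2 measured 505, 602 and 599 RPKM in JAX, 583, 399 and 323 in TAC, 397, 354 and 319.9 in CoJAX, and 309, 294 and 361 in CoTAC. JAX and CoJAX did not overlap, and the TAC libraries reached into both ranges. The difference was -0.67 ± 0.20 log2 (limma adjusted p = 0.029), but -0.24 ± 0.11 with the depth term and -0.22 after quantile normalization. Eif2ak2 (PKR), the kinase that halts translation when it binds double-stranded RNA, measured 8.29, 10.9 and 9.01 RPKM in JAX and 4.94, 7.24 and 6.80 in CoJAX, with no overlap. In TAC it measured 8.04, 6.80 and 6.77 RPKM and in CoTAC 7.03, 8.03 and 8.52. Its difference of CoJAX from JAX was -0.55 ± 0.17 log2 (limma adjusted p = 0.039) and -0.52 ± 0.23 with the depth term (limma adjusted p = 0.193).

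Isg15, the ubiquitin-like modifier whose start region is shown above with 3 cores, measured 54.7, 85.4 and 81.0 RPKM in JAX and 43.3, 37.1 and 52.0 in CoJAX. In TAC it measured 63.6, 60.7 and 45.6 RPKM and in CoTAC 43.3, 41.2 and 72.0, and both overlapped JAX. CoJAX was lower than JAX by -0.72 ± 0.23 log2 (limma adjusted p = 0.0433). In reads, which are not scaled to depth, the same libraries held 65, 81 and 73 in JAX and 56, 56 and 116 in CoJAX. CoJAX 3, with 116, had a relative depth of 1.8788, so overlap in reads does not bear on the level. With the depth term the difference was -0.49 ± 0.30 (limma adjusted p = 0.345). Of the other ISG15 system members, Usp18, its protease, and Herc6, its mouse ligase, neither was called in this comparison.

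B2m measured 842, 1011 and 1046 RPKM in JAX, 979, 729 and 465 in TAC, 710.1, 597 and 462 in CoJAX, and 487, 460.5 and 517 in CoTAC. CoJAX lay below JAX with no overlap, by -0.73 ± 0.25 log2 (limma adjusted p = 0.0498). With the depth term the difference was -0.12 ± 0.05 and after quantile normalization -0.13, more than 1.5 times smaller in both. Tap1, the peptide transporter of the class I pathway, was not called.

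Gbp7, a guanylate binding protein of the vacuole, measured 5.64, 7.28 and 6.88 RPKM in JAX and 4.01, 3.7 and 3.14 in CoJAX. In TAC it measured 3.87, 3.32 and 3.7 RPKM, all below JAX as well, and in CoTAC 3.22, 5.11 and 3.06. The difference of CoJAX from JAX was -0.78 ± 0.20 log2 (limma adjusted p = 0.0189), and -0.7 ± 0.26 with the depth term (limma adjusted p = 0.144). The other 7 of the 8 GTPases and guanylate binding proteins were not called.

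The members that were higher in CoJAX were Parp9, a macrodomain ADP-ribosyltransferase, and Lgals3bp, a secreted glycoprotein that binds galectins. Parp9 measured 19.2, 19.3 and 13.2 RPKM in JAX, 20.9, 26.5 and 27.3 in TAC, 25, 28.5 and 25.5 in CoJAX, and 29.1, 27.4 and 34.2 in CoTAC. JAX was below every other library, and CoJAX stood higher by 0.61 ± 0.16 log2 (limma adjusted p = 0.0196), or 0.46 ± 0.21 with the depth term (limma adjusted p = 0.205). Lgals3bp measured 48.0, 38.6 and 42.2 RPKM in JAX, 57.2, 77.9 and 63.7 in TAC, 51.5, 55.6 and 64.4 in CoJAX, and 75.4, 64.6 and 73.5 in CoTAC. Again JAX was lowest, with a difference of 0.41 ± 0.14 log2 for CoJAX (limma adjusted p = 0.047), or 0.27 ± 0.17 with the depth term (limma adjusted p = 0.349).

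**Figure D3:**
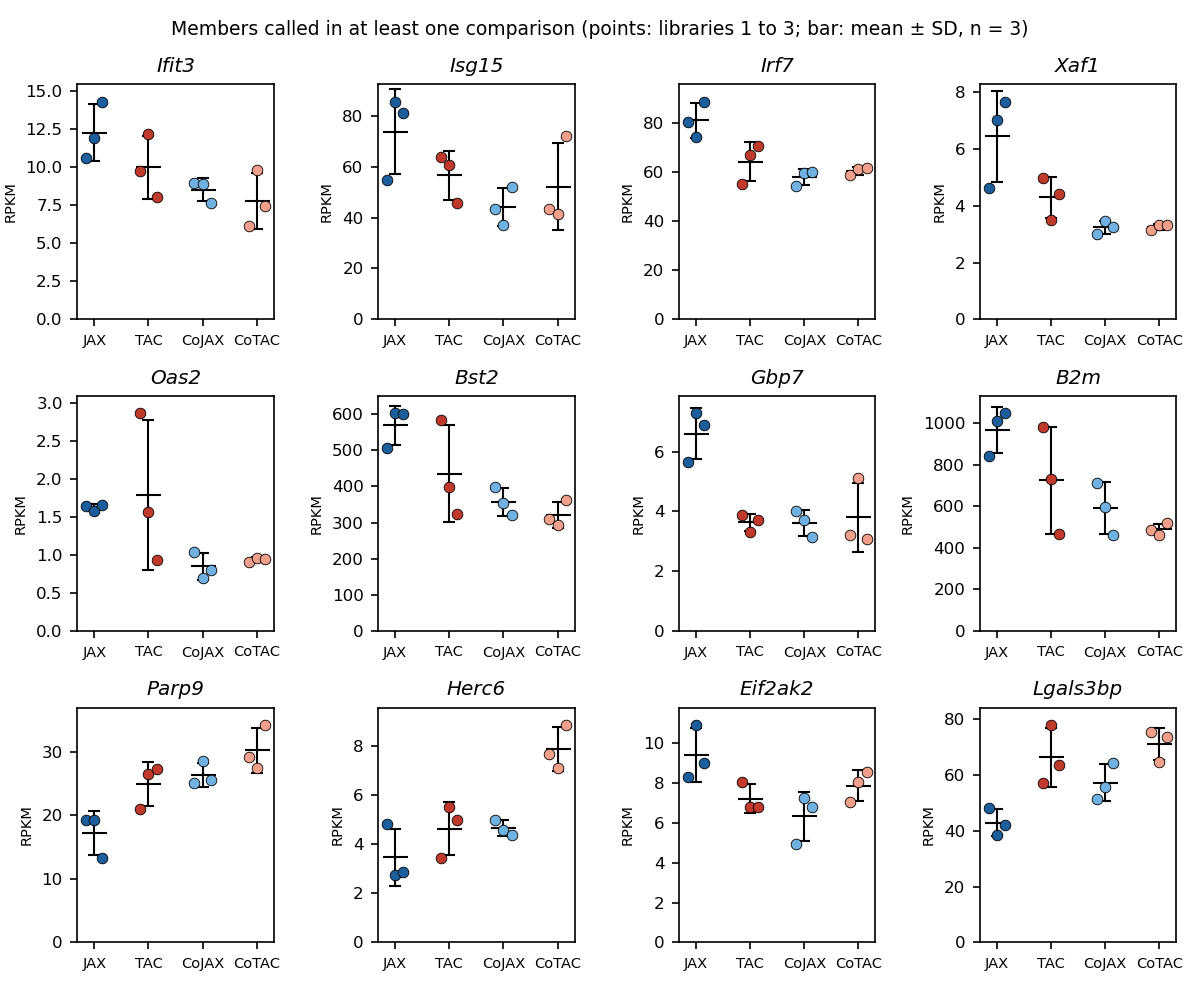
RPKM of the 12 members called in any comparison, by group (points: libraries 1 to 3; bars: mean ± SD, n = 3); each panel has its own linear axis from 0. JAX stands above both cohoused groups in Irf7, Xaf1, Bst2, B2m, Gbp7, Ifit3 and Oas2 and below them in Parp9 and Lgals3bp.

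Several of these calls were lost when 1 library was left out. Leaving out 1 library at a time gave 2 to 10 called members, with 2 without JAX 3 and without CoJAX 2, and 3 without JAX 2 and without CoJAX 3. Calls over all genes fell in the same fits, from 24.1% to 11.9% without JAX 3 and 10.6% without CoJAX 2. They fell to 14.1% without JAX 2 and 13.4% without CoJAX 3. The loss is thus not shown to be particular to the members. Of 12 such fits Parp9 passed in 10 (lost without JAX 3 or CoJAX 2), and Bst2 and Gbp7 in 8 (lost without JAX 2, JAX 3, CoJAX 2 or CoJAX 3). Isg15 passed in 6 (lost without JAX 2, JAX 3, TAC 2 or any CoJAX library) and Eif2ak2 in 6 (lost without JAX 2, JAX 3, CoTAC 3 or any CoJAX library). Lgals3bp passed in 5 (lost without JAX 2, JAX 3, TAC 3, CoJAX 2, CoJAX 3, CoTAC 1 or CoTAC 3), and B2m in 3 (without TAC 1, TAC 3 or CoJAX 1). Short and long members had like medians here. Called were 5 lower and 1 higher among the 22 shorter members, and 2 lower and 1 higher among the 22 longer. The shares of all genes called in these ranges of length were not counted, so no lean of the members is read from this. With the length trend removed 5 members were called, in a fit that called 18.1% of all genes. The 22 shorter members (756 to 2516 nucleotides) had a median difference of -0.15 log2, against -0.16 for 5142 genes of that length, and the 22 longer (2604 to 7417 nucleotides) one of -0.16, against 0.17 for 5085 genes. JAX 1, TAC 2 and CoJAX 1 had nearly equal depth (1, 1.0541 and 1.0882). In that order they read 80.2, 67.0 and 54.1 RPKM for Irf7, 4.63, 3.51 and 3.02 for Xaf1 and 842, 729 and 710.1 for B2m. Bst2 read 505, 399 and 397 RPKM and Eif2ak2 8.29, 6.80 and 4.94. In the other members called for CoJAX against JAX, TAC 2 did not lie between JAX 1 and CoJAX 1. Isg15 read 54.7, 60.7 and 43.3 RPKM and Gbp7 5.64, 3.32 and 4.01. Parp9 read 19.2, 26.5 and 25 RPKM and Lgals3bp 48.0, 77.9 and 51.5. With 1 library each, these have no replicate check.

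Between Taconic and Jackson mice kept apart, 1 of the 44 members was called, against 4.09% of all genes (493 genes, 2.38% higher). This comparison shares its JAX libraries with the one above. Lgals3bp was higher in TAC by 0.61 ± 0.14 log2 (limma adjusted p = 0.0352), with no overlap. Leaving out JAX 1, JAX 2, JAX 3, TAC 2, TAC 3 or CoTAC 3 took this call away, and with the depth term it stood at 0.53 ± 0.14 (limma adjusted p = 0.0878). Next by p were Gbp7, at -0.78 ± 0.20 log2 (limma adjusted p = 0.0542), and Parp9, at 0.53 ± 0.16 (limma adjusted p = 0.0752). Irf1, a factor that type II interferon induces through a GAS, measured 35.8, 26.4 and 27.8 RPKM in JAX, 22.9, 18.9 and 21.2 in TAC, 35.4, 28.8 and 34.1 in CoJAX, and 24.4, 27.3 and 33.8 in CoTAC. TAC lay below every other library for Irf1, and the difference from JAX was -0.50 ± 0.15 log2 (limma adjusted p = 0.0778). Without TAC 1, whose depth of 0.7943 was near that of JAX, 8 members passed: Oasl1, Ddx58, Parp9 and Lgals3bp higher and Irf1, Bst2, Gbp7 and B2m lower. Over all genes the count then was 2116, or 17.6%.

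In Taconic mice, shared housing with Jackson mice gave no called member, against 0.647% of all genes (78 genes), and 2 of the 44 had an unadjusted limma p under 0.05, both higher, against 24.6% of all genes. The depth fit and the length fit called 0 members too. Herc6 measured 3.43, 5.52 and 4.98 RPKM in TAC and 7.67, 7.12 and 8.87 in CoTAC, with no overlap. It stood at 4.82, 2.73 and 2.88 RPKM in JAX and 5.01, 4.59 and 4.36 in CoJAX, so CoTAC held the highest libraries. The difference of CoTAC from TAC was 0.72 ± 0.22 log2 (limma adjusted p = 0.114). For Irf1 it was 0.42 ± 0.15 (limma adjusted p = 0.142), and for B2m -0.51 ± 0.25 (limma adjusted p = 0.221). Without TAC 3, Bst2 and B2m passed as lower in CoTAC, in a fit that called 12.7% of all genes, and without CoTAC 2, Zbp1 passed as higher, in a fit that called 3.14%. In neither was the share of members above that of all genes.

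Between the cohoused groups, CoTAC and CoJAX, 0 of the 44 members were called, against 0.0663% of all genes (8 genes), and 3 had an unadjusted limma p under 0.05, against 10.8% of all genes. These were Herc6, higher in CoTAC by 0.70 ± 0.22 log2 (limma adjusted p = 0.347), Lgals3bp, by 0.32 ± 0.14 (limma adjusted p = 0.438), and Sp100. Sp100, a nuclear body protein, measured 4.78, 3.91 and 4.41 RPKM in CoJAX and 1.84, 4.24 and 1.19 in CoTAC, which overlap, with a difference of -0.87 ± 0.35 log2 (limma adjusted p = 0.419). It stood at 6.62, 2.96 and 4.68 RPKM in JAX and 2.68, 3.37 and 2.83 in TAC. The 95% interval of the difference lay within 2-fold in either direction for 38 of the 44 members. Without CoTAC 2, Zbp1 passed as higher in CoTAC, 1 of 44 members in a fit that called 1.91% of all genes against 0.0663% with that library.

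Zbp1, the sensor of Z-form nucleic acid, had its widest spread in CoTAC. It measured 17.1, 21.2 and 23.4 RPKM in JAX, 13.0, 18.8 and 20.1 in TAC, 14.5, 22.1 and 16.8 in CoJAX, and 50.2, 12 and 33.4 in CoTAC, so CoTAC held both the lowest library and the highest. Ly6e measured 132, 136 and 145 RPKM in JAX, 158, 191 and 115 in TAC, 146, 125 and 118 in CoJAX, and 150, 96.5 and 175 in CoTAC, and all groups overlapped. Cxcl9, a chemokine that attracts T cells, measured 14.4, 10.9 and 5.86 RPKM in JAX, 6.89, 6.65 and 5.75 in TAC, 8.17, 9.97 and 5.82 in CoJAX, and 11.4, 4.93 and 9.25 in CoTAC. All groups overlapped here too. Over all members CoTAC 3 held the highest value of 11 and CoTAC 1 the lowest of 9, and their median deviations from the member means were 0.214 and -0.175 log2.

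**Figure D4:**
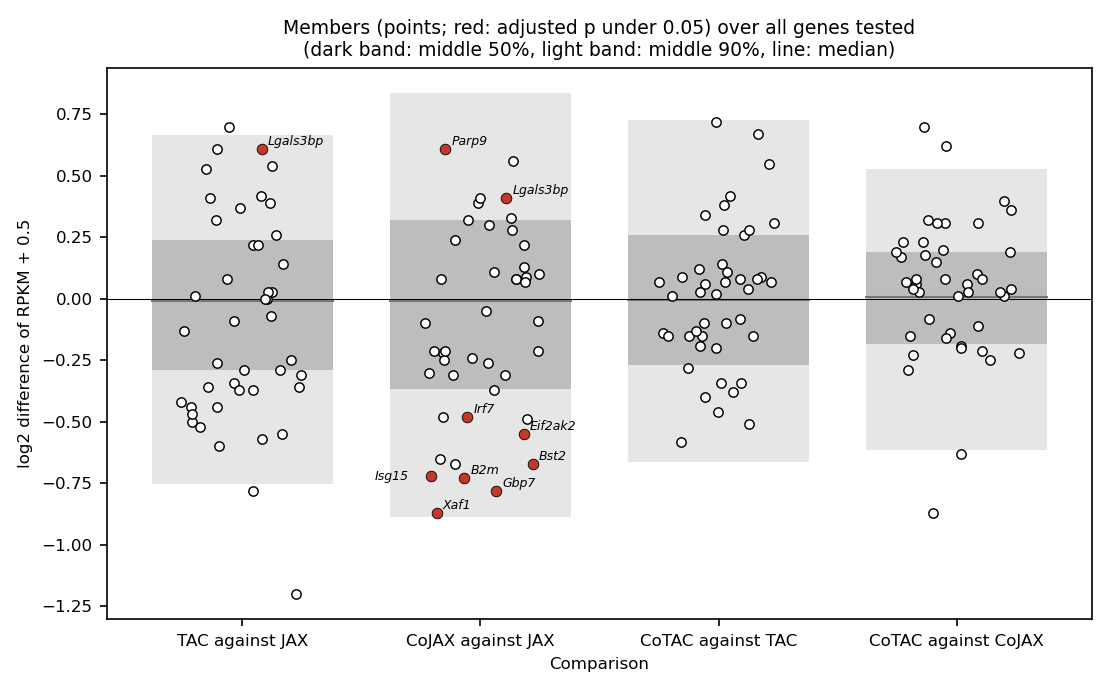
Log2 difference of each of the 44 members (points) in the pairwise comparisons on the log2(RPKM + 0.5) scale, over bands that hold the middle 50% (dark) and 90% (light) of all tested genes, with filled points for called members. Called members are 9 for CoJAX against JAX, 1 for TAC against JAX and 0 in both comparisons with CoTAC.

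Averaged over both vendors, cohoused mice differed from mice kept apart in 8 of the 44 members (18.2%), 2 higher and 6 lower, while 33.3% of all genes were called (16.5% higher and 16.8% lower). These libraries are those of the comparisons above, so the averages are no separate evidence. Herc6 was higher by 0.57 ± 0.16 log2 (limma adjusted p = 0.019) and Parp9 by 0.45 ± 0.11 (limma adjusted p = 0.0128). Xaf1 was lower at -0.60 ± 0.14 (limma adjusted p = 0.00969), Bst2 at -0.54 ± 0.14 (limma adjusted p = 0.0135), Irf7 at -0.28 ± 0.08 (limma adjusted p = 0.018) and B2m at -0.62 ± 0.17 (limma adjusted p = 0.0195). These 6 passed without any 1 of the 12 libraries, but 0 members passed with the depth term, where B2m stood at -0.06 ± 0.04, Bst2 at -0.14 ± 0.09 and Irf7 at -0.41 ± 0.10. The depth fit called 0.00829% of all genes. Bst2, B2m and Irf7 were also lost after quantile normalization, which called 30.5% of all genes. With the length trend removed, Bst2, B2m, Irf7 and Herc6 were lost, and 23.1% of all genes were called. Xaf1 and Parp9 passed in both of these fits. Cohoused libraries had relative depths of 1.0882 to 1.8788 and libraries of mice kept apart 0.7581 to 1.7540, and the part of depth in these differences was not otherwise tested.

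Ifit3 and Oas2 were called as lower in that average on weaker ground. Ifit3, an RNA-binding partner of Ifit1, measured 10.6, 11.9 and 14.3 RPKM in JAX, 9.73, 12.2 and 8.08 in TAC, 9.0, 8.93 and 7.68 in CoJAX, and 6.16, 9.80 and 7.45 in CoTAC. Its difference was -0.42 ± 0.14 log2 (limma adjusted p = 0.0367) and passed in 4 of the 12 fits that leave out 1 library, those without JAX 1, TAC 3, CoJAX 1 or CoTAC 2. Oas2, which makes the activator of RNase L, measured 1.64, 1.58 and 1.66 RPKM in JAX, 2.86, 1.56 and 0.935 in TAC, 1.04, 0.696 and 0.806 in CoJAX, and 0.905, 0.960 and 0.952 in CoTAC. That is 7 to 18 reads a library. Its difference was -0.62 ± 0.21 log2 (limma adjusted p = 0.0372), and it passed only without TAC 3 or CoJAX 1.

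Averaged over both housings, Taconic mice differed from Jackson mice in 1 of the 44 members, against 3.47% of all genes (1.53% higher). Lgals3bp was higher by 0.47 ± 0.10 log2 (limma adjusted p = 0.0323), a call lost with the depth term and in 8 of the 12 fits that leave out 1 library (all but those without JAX 1, TAC 1, CoJAX 2 or CoTAC 2). The difference between the vendors in their change with cohousing was called for 0 members and 0 of all genes (0%). Of the 44, 4 had an unadjusted limma p under 0.05, against 11.3% of all genes, and the smallest belonged to Gbp3 (1.0 ± 0.33 log2, limma adjusted p = 0.298) and Gbp7 (0.81 ± 0.29, limma adjusted p = 0.326). So the 9 calls in Jackson mice and the 0 in Taconic mice are not shown to differ. The standard error of that difference had a median of 0.32 log2, and its 95% interval lay within 2-fold for 23 of the 44.

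The interferons themselves were at the floor of the table. Of 17 listed interferon genes in it, 16 were at 0 in all libraries, and Ifnk reached 0.474 RPKM in 1 library. Of 13 tested receptors and signalling genes, 2 were higher in CoJAX than in JAX and 3 lower, in a comparison that called 24.1% of all genes. Jak1 rose by 0.65 ± 0.12 log2 (limma adjusted p = 0.0065; 0.52 ± 0.15 and 0.0894 with the depth term) and Ifngr2 by 0.88 ± 0.29 (limma adjusted p = 0.0422), the latter lost without JAX 2, JAX 3, TAC 2, CoJAX 1, CoJAX 2, CoTAC 1 or CoTAC 3 and with the depth term (0.69 ± 0.38, limma adjusted p = 0.297). Ifnar2 measured 202, 207 and 246 RPKM in JAX and 162, 150 and 149 in CoJAX, a difference of -0.50 ± 0.13 log2 (limma adjusted p = 0.0213) that was lost without JAX 3, CoJAX 2 or CoJAX 3. With the depth term it was -0.26 ± 0.11 (limma adjusted p = 0.19), more than 1.5 times smaller.

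Socs1, the feedback inhibitor of the JAK kinases, measured 3.65, 2.86 and 2.41 RPKM in JAX, 1.72, 2.16 and 1.04 in TAC, 0.419, 1.44 and 0.728 in CoJAX, and 0.273, 0.248 and 0.287 in CoTAC. Every JAX library was above all others and every CoTAC library below all others. CoJAX was lower than JAX by -1.40 ± 0.31 log2 (limma adjusted p = 0.0117). The values rest on few reads, 8, 5 and 4 in JAX, 1, 4 and 3 in CoJAX and 1 in each CoTAC library, if the smallest whole numbers hold. With the depth term the difference was -1.28 ± 0.42 (limma adjusted p = 0.111).

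Of 14 tested genes that lead to interferon induction, 4 were higher and 2 lower in CoJAX than in JAX, again against 24.1% of all genes called. Mavs, the mitochondrial adaptor of Ddx58 and Ifih1, measured 29.9, 35.5 and 29.3 RPKM in JAX, 43.4, 43.4 and 60.8 in TAC, 56, 59.6 and 62.9 in CoJAX, and 61.1, 60.5 and 59.9 in CoTAC. It was lowest in JAX with no overlap, by 0.91 ± 0.13 log2 against CoJAX (limma adjusted p = 0.00442) and 0.62 ± 0.13 against TAC (limma adjusted p = 0.0322). The TAC call was lost without JAX 1, JAX 2, JAX 3, TAC 2 or TAC 3, and neither call held with the depth term. Irf3, the factor that Mavs signalling activates, fell by 0.50 log2 in CoJAX (limma adjusted p = 0.0153), from 89.6, 102 and 92.4 RPKM to 71.3, 65.5 and 64, a call lost without JAX 2, CoJAX 2 or CoJAX 3. With the depth term its difference was -0.28 ± 0.12 (limma adjusted p = 0.178), more than 1.5 times smaller.

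Among 43 further interferon-induced genes that were tested, 2 were higher and 13 lower in CoJAX than in JAX, with a median of -0.40 log2. Of all genes 12.7% were higher and 11.5% lower, with a median of -0.01, and 39 were called with the depth term. The immunoproteasome subunit Psmb9 and the proteasome activators Psme1 and Psme2 were among the lower. Psme1 measured 337, 367 and 387 RPKM in JAX, 294, 248 and 212 in TAC, 228, 212 and 200 in CoJAX, and 174, 184 and 194 in CoTAC. JAX was above every other library, and CoJAX differed by -0.77 ± 0.13 log2 (limma adjusted p = 0.00562). Psme1 was still called with the depth term, at -0.53 ± 0.08 (limma adjusted p = 0.0313). Psmb9, at -0.7 ± 0.18 (limma adjusted p = 0.0771), and Psme2, at -0.48 ± 0.11 (limma adjusted p = 0.0622), were not. Dtx3l, the partner of Parp9 in its ADP-ribosyltransferase complex, named after its values were seen, measured 12.4, 12.9 and 9.05 RPKM in JAX and 15.9, 15.5 and 16 in CoJAX, a rise of 0.46 ± 0.15 log2 (limma adjusted p = 0.0376) that was lost without JAX 3 or any CoJAX library and with the depth term (0.34 ± 0.19, limma adjusted p = 0.299). Between TAC and JAX 2 of these 43 were lower, Psme1 and Psmb10, in a comparison that called 4.09% of all genes, a share near that of the list. Both were lost without JAX 1, JAX 2, JAX 3, TAC 2, TAC 3, CoJAX 1 or CoTAC 3, and Psme1 also without CoJAX 2, CoJAX 3 or CoTAC 1. With the depth term Psme1 passed (-0.39 ± 0.07, limma adjusted p = 0.0292) and Psmb10 did not (-0.56 ± 0.15, limma adjusted p = 0.0806). In the comparisons of CoTAC with TAC and with CoJAX none of the tested pathway genes was called.

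Markers of other cell types moved with the groups to some degree. Summed RPKM of 10 T and natural killer cell markers was 52.6 in JAX 1 and 4.44 to 16.4 in the 11 others. Sums of 4 plasmacytoid dendritic cell markers, a cell type that makes type I interferon, ran from 4.56 to 6.35 for JAX, 2.7 to 3.2 for TAC, 2.36 to 3.45 for CoJAX and 2.06 to 3.14 for CoTAC. Of these 4 only 1, Tcf4, reached 1 RPKM in 3 or more libraries, so the sums do not measure how many such cells there were. Those of 11 Kupffer cell and macrophage markers ran from 400 to 806 for JAX, 501 to 686 for TAC, 402 to 521 for CoJAX and 382 to 546 for CoTAC, which overlap. Sinusoidal endothelial sums, over 6 markers, were 115 to 167 for JAX, 96.9 to 126 for TAC, 102 to 143 for CoJAX and 38.7 to 103 for CoTAC, so JAX overlapped TAC and CoJAX but not CoTAC. B cell sums, over 4 markers, were 3.33 to 7.03 for JAX, 0.261 to 1.83 for TAC, 2.23 to 3.85 for CoJAX and 0.953 to 1.85 for CoTAC, with no overlap between the vendors. Only 2 of these 4 reached 1 RPKM in 3 or more libraries. Cd79a, a part of the B cell receptor, and named after its values were seen, was lower in TAC than in JAX by -1.79 ± 0.34 log2 (limma adjusted p = 0.0269). The other tested B cell marker was not called, in a comparison that called 4.09% of all genes. The calls of Cd79a and of Cps1, below, were not followed through the depth term or the fits that leave out 1 library. Neutrophil sums, over 4 markers, were 62.7 in TAC 2 and 37 in CoTAC 3, 7.11 to 14.4 in the other TAC and CoTAC libraries, 13.5 to 20.8 in JAX and 7.11 to 14.6 in CoJAX. The 8 hepatocyte markers summed to 5200 to 6515 RPKM for JAX, 3417 to 6575 for TAC, 3208 to 5149 for CoJAX and 3115 to 3635 for CoTAC. Times relative depth, these sums spanned 1.22 times over all libraries. Cps1, a urea cycle enzyme on the same list that was also named after its values were seen, was higher in CoJAX than in JAX by 0.82 ± 0.16 log2 (limma adjusted p = 0.007). Cps1 went against its list: Ttr was called lower in that comparison, and the median of the 8 was -0.62 log2. In the average over both vendors 6 of the 8 were called lower in cohoused mice, against 16.8% of all genes, and only Cps1 higher. Also lower in that average were 3 of the 6 sinusoidal endothelial markers (Lyve1, Clec4g and Pecam1), 2 of the 11 Kupffer cell and macrophage markers (Cd68 and C1qa) and Tcf4. None of these lists had a marker called higher, and no tested T and natural killer cell, B cell or neutrophil marker was called. No listed marker in the table was at 0 in all libraries, and the part of cell makeup in the members' differences was not tested.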

How the data were processed

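Liver RNA of 12 libraries was sequenced. Per the labels' protocols, RNA was extracted with TRIzol, selected for poly(A) and made into ThruPLEX libraries. The authors deposited 1 table of RPKM values for the series. The submitters' processing notes name Bowtie 1.0.0, Cuffdiff 2.1.1 and the build mm9 but no roles. Annotation, filters, duplicate handling and strand use were not given in the sources used here, so reads of overlapping or antisense genes cannot be told apart. Of 23936 named lines, 27 held spreadsheet dates (0.16% to 0.20% of RPKM) and were left out.

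From the deposited RPKM, log2(RPKM + 0.5) was fitted with limma-trend (limma 3.58.1, R 4.3.3) to 4 groups of 3 libraries for the 12058 genes that reached 1 RPKM in 3 or more libraries. Fold changes of low genes are understated on this scale. A call is an adjusted p under 0.05 (Benjamini-Hochberg over all genes, two-sided). Relative depth came from the steps between values under 0.6 RPKM, with JAX 1 at 1. Whole reads are the smallest whole numbers in the ratios of a gene's values, so a shared factor would be lost. Read totals are estimates that depend on transcript lengths, which were medians over the GENCODE basic transcripts of a gene. The scripts were tested on simulated data.

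The members and the other lists were chosen with earlier results of these data known. Values of every library are given for members called in any contrast, for the 3 smallest p where fewer than 3 were called, and for the most abundant member of each role. Of the pathway lists, up to 4 called genes a comparison could be named, and not all are. Start regions come from RefSeq (GRCm38.p6). Alternatives were a pseudocount of 1, no filter, quantile normalization, a depth covariate, removal of the length trend, a replicate block and leaving out each library.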

Additional observations from a re-analysis of the deposited data

How the results depend on the processing

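All values of called members kept their sign in all 18 alternatives. Called members were 9 for CoJAX against JAX, and 5 with no filter, 5 with the length trend removed and 0 with depth. For TAC against JAX the 1 became 2 after quantile normalization and 0 with depth, for the vendor average the 1 became 0 with depth, and for the housing average the 8 became 4 with the length trend removed and 0 with depth. Of all genes, TAC against JAX called 493, and 328 with no filter, 810 after quantile normalization (492 higher and 318 lower, against 287 and 206), 132 with depth and 267 with the length trend removed. CoJAX against JAX called 2911, and 2513 with no filter, 2083 with the length trend removed and 39 with depth. CoTAC against TAC called 78, and 6 with depth and 50 with the length trend removed. CoTAC against CoJAX called 8, and 5 with depth. The vendor average called 418, and 183 with no filter, 89 with depth and 186 with the length trend removed; its quantile split was 326 higher and 270 lower, against 185 and 233. The housing average called 4012, and 1 with depth and 2660 with the length trend removed, and among members its quantile split was 4 higher and 3 lower, against 2 and 6. The interaction called 0, and 3 with no filter and 2 with depth. Without 1 library, called members ranged from 0 to 8 (TAC against JAX), 2 to 10 (CoJAX against JAX), 0 to 2 (CoTAC against TAC), 0 to 1 (CoTAC against CoJAX), 0 to 7 (vendor) and 6 to 10 (housing). All genes ranged from 11 to 2116, 1276 to 3429, 2 to 1530, 2 to 230, 45 to 1906 and 2890 to 4376 in the same order, and 0 to 46 for the interaction. The causes of these changes were not tested.

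Replicate numbers were shared by all groups, but pairs of the same number correlated at -0.17 to 0.15 in their deviations and 1 of 12 libraries correlated best with its own number, so the samples share only a number. The replicate block gave 5 called members for CoJAX against JAX, 0 for TAC against JAX and 0 for the vendor average, and 63, 17 and 72 of all genes for TAC against JAX, CoTAC against TAC and the vendor average.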
